A study of Mus musculus with 6 samples.

Results

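The 49 genes described here make, trim and modify ribosomal RNA. They were chosen by name from the gene rows of a bulk RNA-seq study of mice treated with 5-fluorouracil (5-FU), and all 49 were found among the 41325 rows in each library. They fall into 8 roles: 5 genes of RNA polymerase I and its factors, 3 abundant nucleolar proteins, 3 core proteins of box C/D and 4 of box H/ACA small nucleolar ribonucleoproteins (snoRNPs), 9 assembly factors of the small (40S) and 9 of the large (60S) ribosomal subunit, 10 subunits of the RNA exosome and 6 stand-alone pseudouridine synthases.

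All mice were ICR females purchased at an age of 10 weeks, kept on a commercial diet and habituated for 7 days. Every mouse, in both groups, received intraperitoneal 5-FU (20 mg/kg/day, 2 injections weekly, 3 weeks). The elemental diet group, 3 libraries, also received by mouth 1.6 kcal in 0.8 mL per day of Elental, a drinkable nutrient formula based on free amino acids, in 2 doses a day on 5 days a week for the same 3 weeks. The saline group, 3 libraries, received the same volume of saline on the same schedule. No mouse went without 5-FU, so each comparison here is between the 2 oral treatments under the drug. The labels give 3 mice per group but do not tie each library to its own mouse. The p-values therefore refer to library-to-library spread, which may be technical.

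Ribosome production starts in the nucleolus, where RNA polymerase I transcribes a long precursor that is cut into the mature ribosomal RNAs. Box C/D snoRNPs methylate and box H/ACA snoRNPs pseudouridylate this precursor, assembly factors fold it onto ribosomal proteins as the small and large subunits, and the RNA exosome, a ring-shaped complex with attached 3′-to-5′ ribonucleases, trims and degrades the by-products. Stand-alone pseudouridine synthases modify tRNAs and other RNAs without a guide RNA. The drug 5-FU is incorporated into RNA as well as blocking thymidylate synthase, and both the exosome, in particular its nuclease EXOSC10, and pseudouridine synthases are known as RNA-level targets of it.

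The tissue label reads salivary gland, without saying which gland, while the extraction protocol names fibroblasts or keratinocytes. Of 10 marker genes of salivary acinar cells, 5 (Pip, Smgc, Bpifa1, Prb1 and Dcpp1) had no read in any library and 8 were under 1 CPM (counts per 1000000 reads, scaled with edgeR's TMM factors) in each library. The summed acinar markers came to 5.20 to 6.33 CPM in the elemental diet libraries and to 12.0 to 14.3 CPM in the saline libraries, and 10 duct and basal markers to 6.74 to 15.7 and 18.2 to 22.3 CPM. Nearly all of the acinar sum came from Bhlha15 (mean 2.09 with elemental diet, 7.21 CPM with saline) and Amy1 (3.59 and 5.39 CPM). The labelled tissue was therefore not borne out by its defining markers. Library totals were 29053287 to 33073125 reads assigned to genes, at which 3 reads, the upper limit that a count of 0 allows, correspond to 0.0867 to 0.117 CPM on this scale. Introns held 8.39% to 8.82% of the reads in the elemental diet libraries and 13.7% to 14.4% in the saline libraries.

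Transcripts of nearly the whole set were more abundant with the elemental diet. In edgeR's quasi-likelihood test over all genes, with Benjamini-Hochberg adjustment at 0.05, 48 of 49 members were higher with elemental diet, 0 were lower, and the tRNA pseudouridine synthase Pus3 did not pass. Over all 18303 genes tested, 38.0% were higher and 40.2% were lower. All 49 members passed the filter on low counts. Their median log2 fold change (elemental diet over saline) was 1.05, with an interquartile range of 0.71 to 1.32 and a span of 0.03 (Pus3) to 1.91 (Nhp2, a box H/ACA protein). The median of all genes tested was -0.08 and their interquartile range -0.97 to 0.74. Among the 8890 genes whose mean level lay within that of the members, 19.4 to 1025 CPM, 55.7% were higher, 33.4% were lower, and the median was 0.29. More than a 2-fold rise was seen in 26 members, against 19.1% of all genes. The values of the 3 libraries of each group did not overlap, with the elemental diet libraries on top, in 48 members and in 39.0% of all genes.

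The size of each rise depended on how libraries were scaled. The median of all genes tested was -0.08 with TMM factors, -0.04 with median-of-ratios factors, -0.35 with upper quartile factors and -0.39 with library totals alone. The members' median stood 1.13 above that of all genes under each of these 4 scalings. This gap is nearly fixed in advance, because a change of scaling shifts all genes by about the same amount. With upper quartile factors or library totals 45 members were higher, Pus3 was lower, and Exosc5, Exosc10 and Trub1 did not pass. Of all calls 48.6% were on the higher side with TMM factors, 38.2% with upper quartile factors and 36.9% with library totals.

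**Figure D1:**
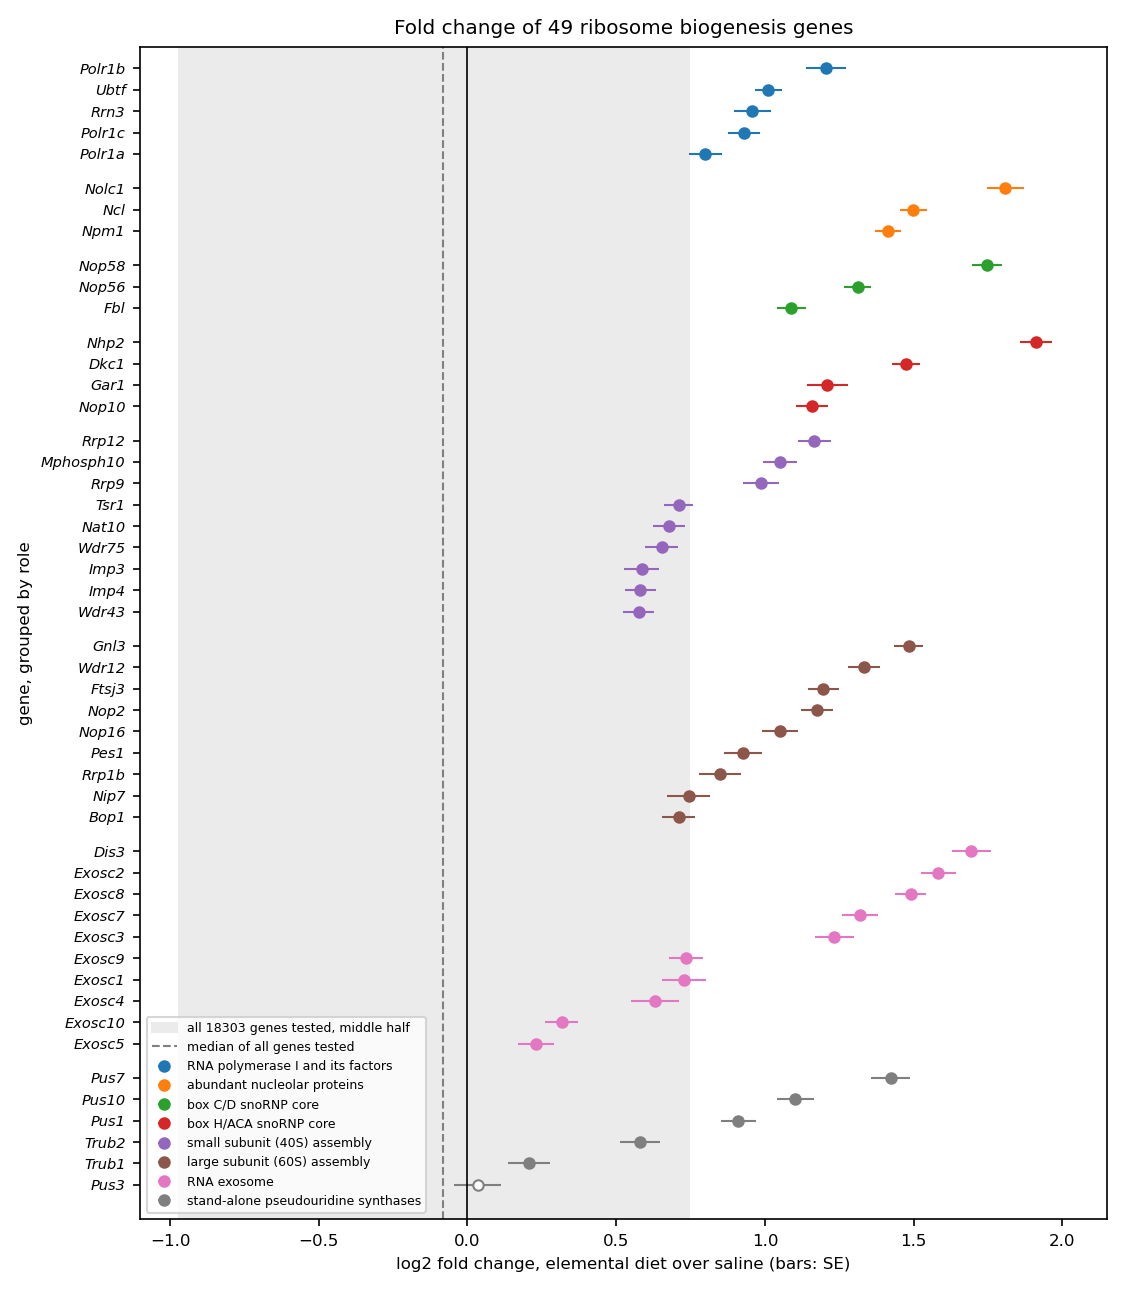
Log2 fold change (elemental diet over saline, x axis) of each of the 49 genes, grouped by role on the y axis, with the edgeR estimate as a point and its standard error (SE) as a bar. The open point, Pus3, did not pass the test. Grey marks the interquartile range of all 18303 genes tested and the dashed line their median of -0.08. Every role has its points to the right of that line, and the exosome and synthase groups span the widest range.

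Summed over the set, the members held 7651, 8029 and 7862 CPM in elemental diet libraries 1, 2 and 3 and 3383, 3340.5 and 3437 CPM in saline libraries 1, 2 and 3. The groups were far apart, at 7847 ± 189 (SD, n = 3) against 3387 ± 48.5 CPM (SD, n = 3), a 2.32-fold difference. As a plain share of all reads the set took 0.705% ± 0.0111 with elemental diet and 0.377% ± 0.00468 with saline (SD, n = 3). In the authors' TPM, which adjusts for transcript length, the sums were 5278 ± 102 and 2949 ± 35.0 (SD, n = 3), a 1.79-fold difference. An exact two-sided permutation test over the 20 arrangements of 3 against 3 libraries gave p = 0.1 for each sum, the smallest p this design allows. On the TPM scale 46 members were apart on the higher side and 3 (Exosc5, Pus3 and Trub1) on the lower side, with a median log2 ratio of 0.70. Over all genes tested 29.3% were apart on the higher side in TPM and 49.7% on the lower side.

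The libraries also differed in the RNA of other cell types. All 12 markers of dividing cells were higher with elemental diet, at 5946 to 6869 summed CPM against 290.1 to 308 with saline (median log2 fold change 4.68). All 11 erythroid markers found were higher, at 43441 to 44432 against 2908 to 4602 CPM (median 3.82), and all 10 markers of neutrophils and their precursors were higher, at 243 to 284 against 10.4 to 13.2 CPM. All 10 B-cell markers were lower, at 946 to 1003 against 7222 to 7487 CPM, as were all 10 T-cell markers, at 85.6 to 95.7 against 551 to 671 CPM, and all 8 macrophage markers, at 570.0 to 700 against 1295 to 1579 CPM. Of 8 plasma-cell markers 7 were lower and 1 higher, at 469 to 522 against 1711 to 1877 CPM. Of 8 fibroblast and stroma markers 2 were higher and 2 lower, at 504 to 942 against 493 to 592 CPM. The part of these cell types in the members' rise was not tested, and in bulk RNA a change in the number of cells of a type and a change in RNA per cell cannot be told apart.

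**Figure D2:**
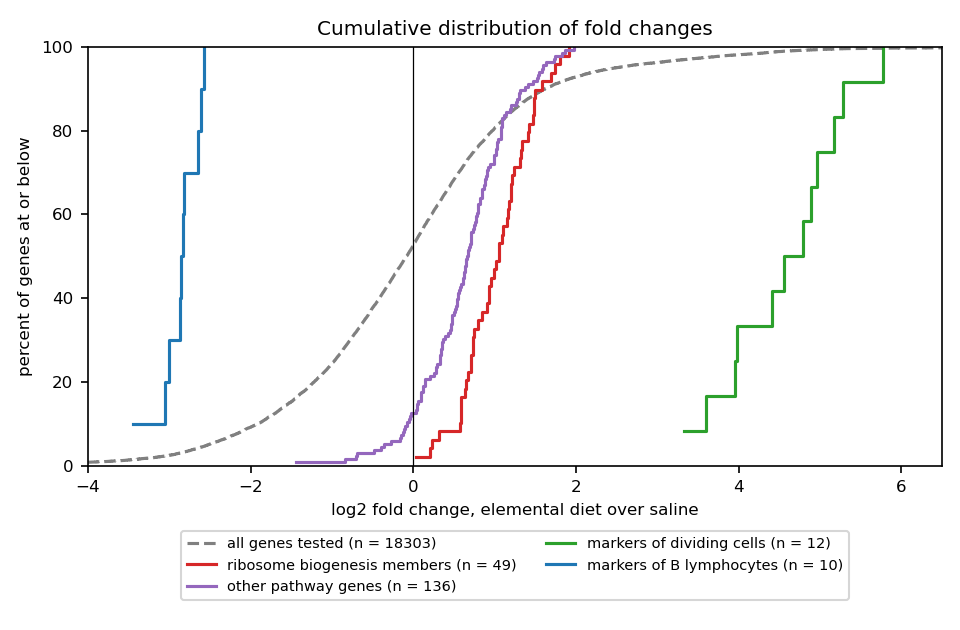
Percent of genes (y axis) at or below each log2 fold change, elemental diet over saline (x axis), for all genes tested, the 49 members, 136 other pathway genes and the markers of dividing cells and B lymphocytes. The members' curve lies right of zero throughout, from 0.03 to 1.91, between the B-cell markers (median -2.84) and the dividing-cell markers (median 4.68).

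Promoter sequences, from 250 bases before to 50 after the annotated start, were taken from RefSeq for GRCm38.p6, the build line of the files, and were matched for 43 of the 49 members, leaving Npm1, Fbl, Rrp12, Bop1, Exosc4 and Exosc9. They were searched on both strands for 3 motifs: CACGTG, the E-box that MYC and USF proteins bind, CCGGAAG, a core site of ETS-family factors, and CCAAT, the box that NF-Y binds. The 6 printed below are those of Nolc1 and Nhp2, the members with the largest rises, of Exosc10 and Dis3, the nucleases of the exosome, and of Pus3 and Pus7, the synthases with the smallest and the largest change. Each runs 5′ to 3′ on the gene's strand, with matches on either strand in capitals.
Nolc1 at chr19:46075597-46075896, plus strand: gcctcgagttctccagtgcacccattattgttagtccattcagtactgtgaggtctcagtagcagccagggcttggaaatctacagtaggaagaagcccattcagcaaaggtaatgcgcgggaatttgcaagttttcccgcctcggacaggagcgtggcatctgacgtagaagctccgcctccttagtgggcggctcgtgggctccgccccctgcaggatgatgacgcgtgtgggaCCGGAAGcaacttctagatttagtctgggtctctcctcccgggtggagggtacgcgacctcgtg
Nhp2 at chr11:51619523-51619822, plus strand: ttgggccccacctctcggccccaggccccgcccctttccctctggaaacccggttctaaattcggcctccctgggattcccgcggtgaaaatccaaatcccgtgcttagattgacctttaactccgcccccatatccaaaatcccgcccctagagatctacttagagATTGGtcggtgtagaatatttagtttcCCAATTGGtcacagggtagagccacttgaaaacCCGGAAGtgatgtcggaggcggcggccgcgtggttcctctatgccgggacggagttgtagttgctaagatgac
Exosc10 at chr4:148558169-148558468, plus strand: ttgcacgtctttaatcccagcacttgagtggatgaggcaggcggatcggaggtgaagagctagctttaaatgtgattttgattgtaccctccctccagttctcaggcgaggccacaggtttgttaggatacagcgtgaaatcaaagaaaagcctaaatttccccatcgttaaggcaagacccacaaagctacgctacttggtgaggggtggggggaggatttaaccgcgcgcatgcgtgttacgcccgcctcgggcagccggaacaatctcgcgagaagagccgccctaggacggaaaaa
Dis3 at chr14:99099721-99100020, minus strand: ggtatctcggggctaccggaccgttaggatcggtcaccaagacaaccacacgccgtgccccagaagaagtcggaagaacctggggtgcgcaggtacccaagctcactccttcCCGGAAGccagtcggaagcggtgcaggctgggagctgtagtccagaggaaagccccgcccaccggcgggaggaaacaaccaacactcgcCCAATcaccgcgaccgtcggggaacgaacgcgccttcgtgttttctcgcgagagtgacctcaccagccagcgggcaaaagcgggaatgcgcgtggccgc
Pus3 at chr9:35558310-35558609, plus strand: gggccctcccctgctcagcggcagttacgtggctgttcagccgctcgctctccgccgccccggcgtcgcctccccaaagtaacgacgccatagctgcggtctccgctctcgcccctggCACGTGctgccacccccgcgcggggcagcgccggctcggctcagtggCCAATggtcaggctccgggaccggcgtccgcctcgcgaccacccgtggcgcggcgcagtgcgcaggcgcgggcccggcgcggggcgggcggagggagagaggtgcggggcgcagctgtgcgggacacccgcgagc
Pus7 at chr5:23783662-23783961, minus strand: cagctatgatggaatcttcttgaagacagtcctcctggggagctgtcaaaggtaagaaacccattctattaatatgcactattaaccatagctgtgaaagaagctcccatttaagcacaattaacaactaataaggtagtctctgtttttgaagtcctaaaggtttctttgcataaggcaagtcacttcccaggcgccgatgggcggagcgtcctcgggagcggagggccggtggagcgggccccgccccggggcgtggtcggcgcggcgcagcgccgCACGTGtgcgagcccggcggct

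In these windows Nolc1 holds CCGGAAG and Nhp2 holds both CCAAT and CCGGAAG, where 2 bases lie in 2 CCAAT matches on opposite strands. Dis3 holds CCGGAAG and CCAAT, Pus3 holds CACGTG and CCAAT, Pus7 holds CACGTG just downstream of its start, and the Exosc10 window holds none of the 3. Exosc10 has 2 annotated promoters, however. The one not printed holds CCGGAAG, so Exosc10 is among the 12 members counted with that motif below. Counting any annotated promoter of a gene, CACGTG was found in 10 of 43 members (23.3%), against 8.09% of the 27025 gene symbols in the table and 12.2% of the 7021 symbols within the members' range of levels. CCGGAAG was found in 12 members (27.9%), against 9.93% of all symbols and 22.9% of those in range. CCAAT was found in 20 members (46.5%), against 41.1% and 42.9%. The members with CACGTG (Rrn3, Imp4, Wdr43, Tsr1, Pes1, Nop2, Exosc5, Pus1, Pus3 and Pus7) had a median log2 fold change of 0.81, and the 33 without it 1.16. The medians with and without CCGGAAG were 1.11 and 1.01, and with and without CCAAT 0.92 and 1.20. Over the 12738 tested symbols with a promoter in the table, the medians with and without were 0.10 and -0.02 for CACGTG, 0.28 and -0.09 for CCGGAAG and 0.04 and -0.05 for CCAAT. Among the members the order of the medians was the opposite for CACGTG and CCAAT. The member groups are small, and these differences between medians were not tested. These matches describe letters in a window and were not tested as sites.

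All 5 genes of RNA polymerase I and its factors were higher, with log2 fold changes of 0.80 to 1.20 and a median of 0.96. The largest rise was that of Polr1b (chr2:129100995-129126594), which encodes the second largest subunit of the enzyme. It had 66.0, 77.3 and 75.8 CPM in elemental diet libraries 1, 2 and 3 and 32.1, 30.8 and 32.2 CPM in saline libraries 1, 2 and 3, with no overlap and with a log2 fold change of 1.20 (SE 0.07, adjusted p = 8e-10, edgeR). The smallest was that of Polr1a (chr6:71909053-71984935), which encodes the largest, catalytic subunit. It had 98.0, 106 and 111 CPM with elemental diet and 59.3, 60.9 and 61.0 CPM with saline, again without overlap and with a log2 fold change of 0.80 (SE 0.06, adjusted p = 1e-08, edgeR). Between them lay Ubtf, the factor that keeps ribosomal DNA in an open state, at 372 ± 9.81 against 184 ± 3.98 CPM (SD, n = 3 each, log2 fold change 1.01), Rrn3, which brings the polymerase to its promoter, at 86.0 ± 6.84 against 44.3 ± 0.772 CPM (SD, n = 3 each, log2 fold change 0.96), and Polr1c, a subunit shared with RNA polymerase III, at 64.6 ± 1.54 against 33.9 ± 0.617 CPM (SD, n = 3 each, log2 fold change 0.93).

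All 3 abundant nucleolar proteins were higher by over 2-fold. Ncl (chr1:86344719-86359400) encodes nucleolin, which binds nascent ribosomal RNA, and its transcript stood at 1455, 1552 and 1534 CPM in elemental diet libraries 1, 2 and 3 and at 535, 525 and 546 CPM in saline libraries 1, 2 and 3. The lowest elemental diet library was thus far above the highest saline library, with a log2 fold change of 1.499 (SE 0.05, adjusted p = 1.2e-12, edgeR). Npm1 (chr11:33152287-33163206) encodes nucleophosmin, a histone and ribosomal protein chaperone of the nucleolus, and had 1408, 1441 and 1370.3 CPM with elemental diet and 527, 517 and 542 CPM with saline, with a log2 fold change of 1.41 (SE 0.04, adjusted p = 1.8e-12, edgeR). Nolc1 (chr19:46075863-46085530) encodes a chaperone that carries snoRNPs between Cajal bodies and the nucleolus. It had the largest fold change of the 3, with 211, 235 and 235 CPM against 62.0, 63.0 and 69.5 CPM, with a log2 fold change of 1.81 (SE 0.06, adjusted p = 4.7e-12, edgeR). Per length, Npm1 was the most abundant member in both groups and Ncl the second, at 1352 and 389 TPM with elemental diet and 666 and 183 TPM with saline. Nolc1 moved from rank 18 of 49 by mean TPM with saline to rank 9 with elemental diet.

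The 3 core proteins of the box C/D particle were also higher by over 2-fold with TMM factors. Fbl (chr7:28169710-28179269) encodes fibrillarin, the methyltransferase, and had 219, 236 and 225 CPM in elemental diet libraries 1, 2 and 3 and 108, 103 and 109 CPM in saline libraries 1, 2 and 3, with no overlap and with a log2 fold change of 1.09 (SE 0.05, adjusted p = 1e-10, edgeR). Only 35.9% of its reads were unique, and on unique reads its log2 fold change was 0.87. In total reads it was 0.82 with upper quartile factors and 0.78 with library totals. The scaffold protein Nop58 (chr1:59684971-59719044) had 263, 279 and 277 CPM against 80.5, 78.4 and 84.9 CPM, with a log2 fold change of 1.75 (SE 0.05, adjusted p = 9.3e-13, edgeR). Its partner Nop56 had 294 ± 3.19 against 118 ± 2.86 CPM (SD, n = 3 each, log2 fold change 1.31). Among the 3 transcripts, the share of summed TPM held by Nop58 was 11.3% ± 0.156 with saline and 16.0% ± 0.266 with elemental diet, while that of Fbl was 40.4% ± 0.227 and 35.9% ± 0.661 (SD, n = 3 each), without overlap in either case.

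In the box H/ACA core, which also binds telomerase RNA, all 4 genes rose by more than 2-fold with TMM factors. Nop10 and Gar1 rose by less than 2-fold with upper quartile factors (log2 fold changes 0.89 and 0.94) and with library totals (0.85 and 0.90). Dkc1 (chrX:75095854-75109777) encodes dyskerin, the pseudouridine synthase of the particle, and had 201, 209 and 200.3 CPM in elemental diet libraries 1, 2 and 3 and 73.0, 75.2 and 71.7 CPM in saline libraries 1, 2 and 3, with a log2 fold change of 1.47 (SE 0.05, adjusted p = 2.8e-12, edgeR). The largest fold change of all 49 members was that of Nhp2 (chr11:51619735-51623714), an RNA-binding protein of the core. It had 150.3, 152 and 141 CPM against 39.2, 37.6 and 41.1 CPM, so that the lowest elemental diet value was over 3 times the highest saline value, with a log2 fold change of 1.91 (SE 0.06, adjusted p = 8e-13, edgeR). Nop10 (chr2:112261926-112263269), which bridges dyskerin and Nhp2, had the smallest rise, with 117, 127 and 114 CPM against 53.7, 52.4 and 54.9 CPM, with a log2 fold change of 1.16 (SE 0.05, adjusted p = 1.4e-10, edgeR), and Gar1 lay between them at 75.6 ± 5.37 against 32.7 ± 2.22 CPM (SD, n = 3 each, log2 fold change 1.21). The order of these transcripts per length changed with it. Nop10 held 43.5% ± 0.179 of the summed TPM of the 4 with saline and 33.5% ± 0.702 with elemental diet, and Nhp2 30.4% ± 0.716 and 39.9% ± 0.561 (SD, n = 3 each).

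**Figure D3:**
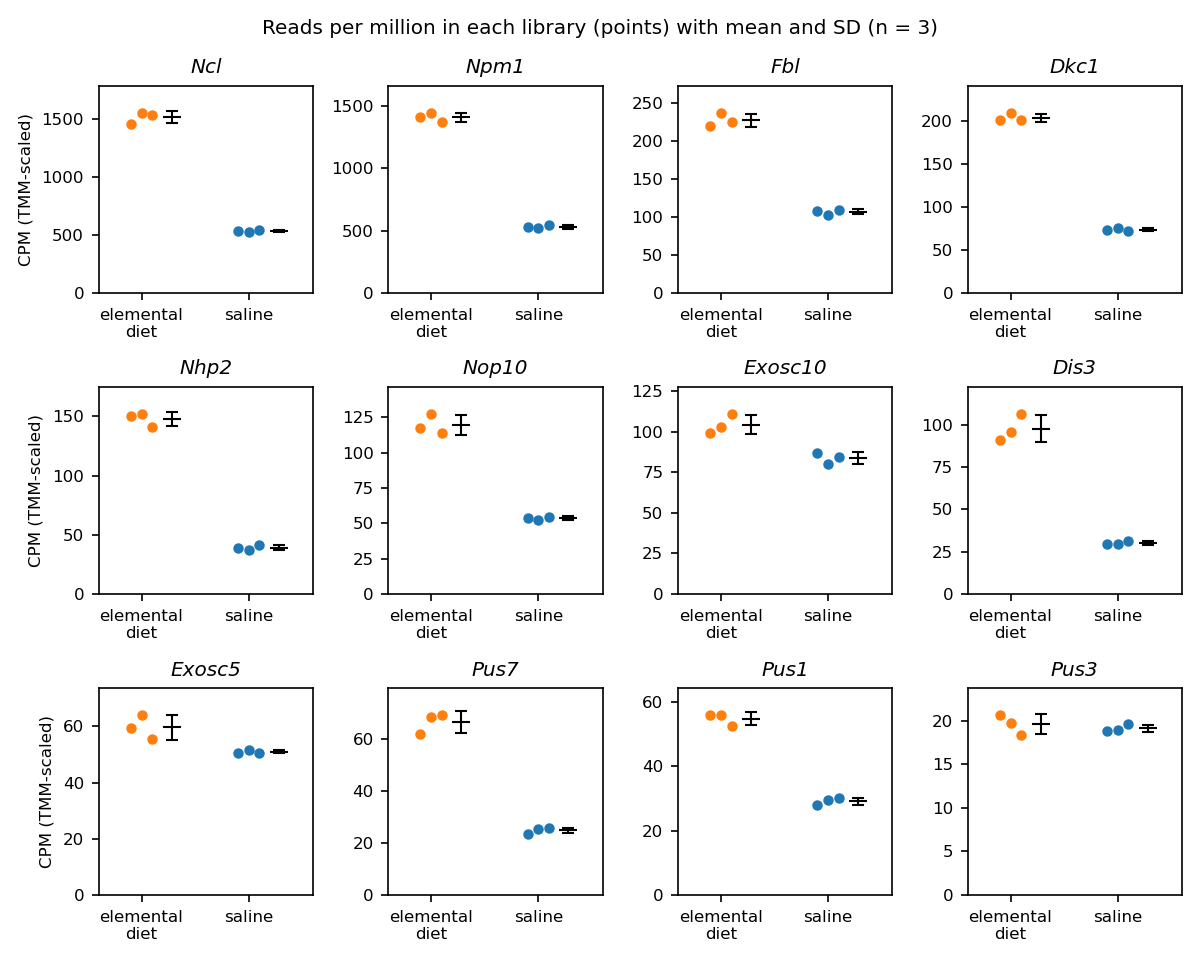
TMM-scaled CPM (y axis, from zero) of 12 members in each library, as points for the elemental diet and saline groups on the x axis, with the mean and SD (n = 3) beside them. The groups are apart in 11 panels, by the widest margin relative to level in Nhp2, and overlap in Pus3.

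Assembly factors of the small subunit had the lowest median of the 8 roles, a log2 fold change of 0.68 over 9 genes, all of them higher. Rrp12 (chr19:41862852-41896153), a factor for export of both subunits, had the largest rise, with 68.9, 73.2 and 74.4 CPM in elemental diet libraries 1, 2 and 3 and 31.6, 33.0 and 31.9 CPM in saline libraries 1, 2 and 3, with a log2 fold change of 1.17 (SE 0.06, adjusted p = 1.7e-10, edgeR). Wdr43 (chr17:71616215-71659031), part of the complex that links the start of processing to transcription, had the smallest, with 146, 151 and 149.5 CPM against 104, 93.9 and 102 CPM. The groups did not overlap, with a log2 fold change of 0.58 (SE 0.05, adjusted p = 1.7e-07, edgeR). The 3 proteins that form a complex on U3 snoRNA differed, with log2 fold changes of 1.05 for Mphosph10, 0.59 for Imp3 and 0.58 for Imp4. The U3 protein Rrp9 had 0.99, the late factor Tsr1 0.71 (0.66 on unique reads), the RNA acetyltransferase Nat10 0.68 and Wdr75, a partner of Wdr43, 0.65. Of Tsr1 reads 64.7% were unique, and its locus overlaps Srr on the opposite strand over 2984 bases. Rrp9 overlaps Parp3 on the opposite strand over 987 bases. Against a threshold of 1.5-fold in place of no change, Imp3, Imp4, Wdr43 and Wdr75 no longer passed.

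Assembly factors of the large subunit had a median log2 fold change of 1.05 over 9 genes, all higher. Gnl3 (chr14:31012433-31019152), which encodes nucleostemin, a GTP-binding protein known from stem and tumour cells, had 162, 168 and 169 CPM in elemental diet libraries 1, 2 and 3 and 60.3, 58.3 and 59.7 CPM in saline libraries 1, 2 and 3, with a log2 fold change of 1.48 (SE 0.05, adjusted p = 2.6e-12, edgeR). Bop1 (chr15:76452989-76477277) had the smallest rise, with 82.2, 87.7 and 90.3 CPM against 55.4, 51.8 and 51.9 CPM and no overlap, with a log2 fold change of 0.71 (SE 0.06, adjusted p = 3.3e-08, edgeR). Bop1, Pes1 and Wdr12 form 1 complex needed to cut the precursor of the large-subunit RNAs, and their log2 fold changes were 0.71, 0.93 and 1.33. The RNA methyltransferases Nop2 and Ftsj3 had 1.18 and 1.20, and the nucleolar factors Nop16, Rrp1b and Nip7 had 1.05, 0.85 and 0.74.

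The RNA exosome had the widest span of the 8 roles. All 10 subunits were higher in total reads with TMM scaling, with a median log2 fold change of 0.98 and a span of 0.23 to 1.69. With upper quartile factors or library totals Exosc5 changed sign and Exosc10 did not pass. On exon reads Exosc5 kept its direction but did not pass. The 3 cap proteins, which bind the RNA as it enters, had a median of 1.23, namely 0.73 for Exosc1, 1.58 for Exosc2 and 1.23 for Exosc3. The 5 measured ring proteins had a median of 0.73, with Exosc8 at 1.49, Exosc7 at 1.32, Exosc9 at 0.73, Exosc4 at 0.63 and Exosc5 at 0.23. Exosc5 (chr7:25659164-25671368) had 59.5, 64.1 and 55.5 CPM in elemental diet libraries 1, 2 and 3 and 50.5, 51.6 and 50.7 CPM in saline libraries 1, 2 and 3. The groups did not overlap, but the gap was small, with a log2 fold change of 0.23 (SE 0.06, adjusted p = 0.0034, edgeR).

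The 2 nucleases attached to the ring had unlike values. Dis3 (chr14:99075206-99099770), the processive nuclease at the base of the channel, had 90.8, 95.5 and 106 CPM in elemental diet libraries 1, 2 and 3 and 29.4, 29.8 and 31.3 CPM in saline libraries 1, 2 and 3, with the groups far apart and with a log2 fold change of 1.69 (SE 0.07, adjusted p = 1.6e-11, edgeR). Exosc10 (chr4:148558429-148582401), the nucleolar nuclease named as a 5-FU target, had 99.3, 103 and 111 CPM against 86.7, 79.9 and 84.5 CPM, close groups without overlap and with a log2 fold change of 0.32 (SE 0.06, adjusted p = 0.00014, edgeR). Its log2 fold change was 0.045 with upper quartile factors and 0.0079 with library totals, with adjusted p = 0.41 and 0.88 in the same edgeR test. As shares of the summed exosome TPM, which do not depend on library scaling, Exosc10 held 19.8%, 19.4% and 20.0% in saline libraries 1, 2 and 3 and 12.1%, 12.2% and 13.9% in elemental diet libraries 1, 2 and 3. Dis3 held 3.65%, 3.76% and 3.90% with saline and 5.80%, 5.70% and 6.68% with elemental diet.

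Other subunits shifted in the same comparison. Exosc5 held 8.99% ± 0.211 of exosome TPM with saline and 4.77% ± 0.285 with elemental diet, Exosc2 8.68% ± 0.372 and 13.0% ± 0.122, and Exosc8 8.07% ± 0.218 and 12.1% ± 0.0678 (SD, n = 3 each). Over all roles, the ratio of each member to the rest of its role was compared in 49 exact permutation tests. Of these ratios 19 were apart on the higher side, 14 on the lower side and 16 overlapped, the smallest p was 0.1 and the smallest Benjamini-Hochberg adjusted value 0.148, so no single ratio could pass. Ratios within a role are tied to each other, and their share in other gene sets was not computed. In CPM of single genes, 7144 of all 18303 genes tested were apart on the higher side and 7677 on the lower side. Only 48.6% of Exosc2 reads were unique, and its log2 fold change on unique reads was 1.56. Its locus overlaps the antisense gene Gm13427 over 4986 bases. Exosc9 overlaps the cyclin gene Ccna2 on the opposite strand over 863 bases; Ccna2 rose by 5.28 on the log2 scale, and the strand setting of the counting is not known.

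**Figure D4:**
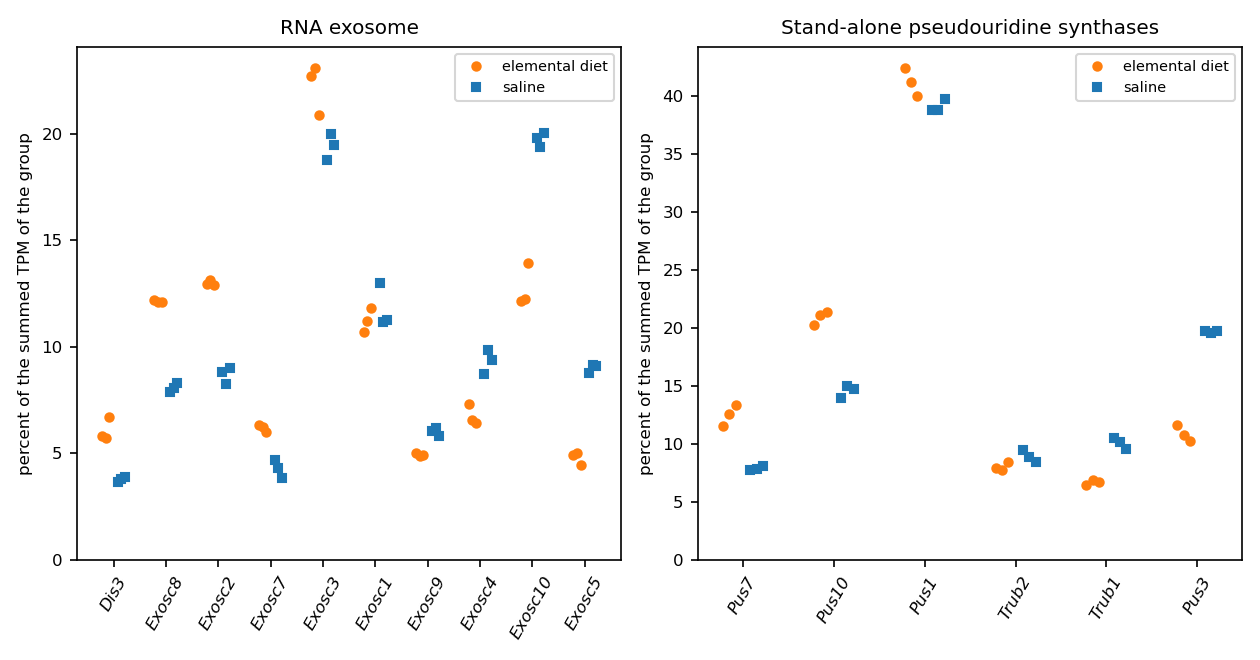
Percent of the summed TPM of the RNA exosome (left, 10 genes) and of the stand-alone pseudouridine synthases (right, 6 genes) held by each gene (x axis), with 1 point per library (circles, elemental diet; squares, saline) and the y axes from zero. Exosc10, Exosc5, Pus3 and Trub1 took smaller shares with elemental diet, and Dis3, Exosc8, Exosc2, Pus7 and Pus10 larger ones, without overlap between groups.

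Among the stand-alone pseudouridine synthases 5 of 6 were higher with TMM scaling, with a median log2 fold change of 0.75, and Trub1 and Pus3 were below zero with upper quartile factors or library totals. Pus7 (chr5:23740648-23783711), which modifies tRNAs and messenger RNAs, had the largest rise, with 61.9, 68.9 and 69.4 CPM in elemental diet libraries 1, 2 and 3 and 23.6, 25.4 and 25.7 CPM in saline libraries 1, 2 and 3, with a log2 fold change of 1.42 (SE 0.07, adjusted p = 1e-10, edgeR). Pus1 (chr5:110773667-110780659), a tRNA and mitochondrial synthase, had 55.9, 56.0 and 52.5 CPM against 28.0, 29.4 and 30.0 CPM, without overlap and with a log2 fold change of 0.91 (SE 0.06, adjusted p = 5e-09, edgeR). For Pus1 49.9% of reads were unique, and its log2 fold change on unique reads was 0.81. Its locus overlaps the antisense gene Gm15559 over 5594 bases. Pus10 had 59.3 ± 1.93 against 27.6 ± 1.68 CPM (SD, n = 3 each, log2 fold change 1.10), and the mitochondrial synthase Trub2 35.3 ± 1.49 against 23.6 ± 0.371 CPM (SD, n = 3 each, log2 fold change 0.58).

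Pus3 (chr9:35558595-35567401), which modifies the anticodon arm of tRNAs, was the 1 member that did not pass. It had 20.7, 19.7 and 18.4 CPM in elemental diet libraries 1, 2 and 3 and 18.9, 19.0 and 19.6 CPM in saline libraries 1, 2 and 3, and the groups overlapped, with a log2 fold change of 0.03 (SE 0.08, adjusted p = 0.71, edgeR). Its locus overlaps Hyls1 on the opposite strand over 6582 bases and 20.1% of its reads were unique. On unique reads, 93 to 136 per library, its log2 fold change was 0.13 (adjusted p = 0.49, edgeR). Trub1 (chr19:57452906-57491005), which modifies the T arm of tRNAs, had 25.5, 28.2 and 26.5 CPM against 23.3, 23.1 and 23.1 CPM, close groups without overlap and with a log2 fold change of 0.21 (SE 0.07, adjusted p = 0.017, edgeR). Without elemental diet library 2 its adjusted p was 0.058, and without saline library 2 it was 0.0586 in the same test. Of the summed TPM of the 6 synthases, Pus3 held 19.7% ± 0.104 with saline and 10.9% ± 0.664 with elemental diet and Trub1 10.0% ± 0.489 and 6.65% ± 0.185. Pus7 held 7.85% ± 0.171 and 12.5% ± 0.912, and Pus10 14.5% ± 0.539 and 20.9% ± 0.586 (SD, n = 3 each).

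Reads within introns, which come from RNA not yet spliced or from other RNA over the locus, gave a separate measure from the same libraries. Of 48 members that could be tested, 29 were higher with elemental diet, 0 were lower and 19 did not pass, where 32.9% of the 14493 genes tested on intron reads were higher and 32.9% were lower. The members' median log2 fold change in intron reads was 0.47, against -0.02 for all genes. The total-read fold change was the larger one in 43 of 48, a count whose share over all genes was not computed. Over the 14459 genes tested in both, the medians were 0.02 in total reads and -0.03 in intron reads. The 2 fits had their own scaling factors, so the 2 fold changes are not on exactly the same scale. Summed over the set, introns held 4.24% ± 0.195 of the members' reads with elemental diet and 8.62% ± 0.334 with saline (SD, n = 3). The intron share was lower in each elemental diet library than in each saline library for 43 of the 48 members tested in both kinds of reads and overlapped for 5, against 55.6% lower among all 14459 genes tested in both. All genes together moved the same way, from 13.7% to 14.4% with saline to 8.39% to 8.82% with elemental diet, so the set shared this direction with the libraries as a whole.

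Members differed in how closely the 2 measures went together. Across the 48 members Pearson's r between the total-read and the intron-read fold change was 0.67 and Spearman's rho 0.70, as a description over genes that share the same libraries. Npm1, with 1.30 in introns and 1.41 in total reads, and Nolc1, with 1.81 and 1.81, had like values in both. Exosc3, with 0.10 and 1.23, and Dis3, with 0.85 and 1.69, had larger changes in total reads, and for Exosc10 the values were -0.06 and 0.32. Fbl, whose reads were mostly not unique, had -0.33 in introns against 1.09, and was called lower on intron reads under 2 of the other scalings and without elemental diet library 3. Nop56 and Nop10 went the other way, with intron fold changes of 2.07 and 2.29 that rest on few reads, at most 70 and 18 per library.

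**Figure D5:**
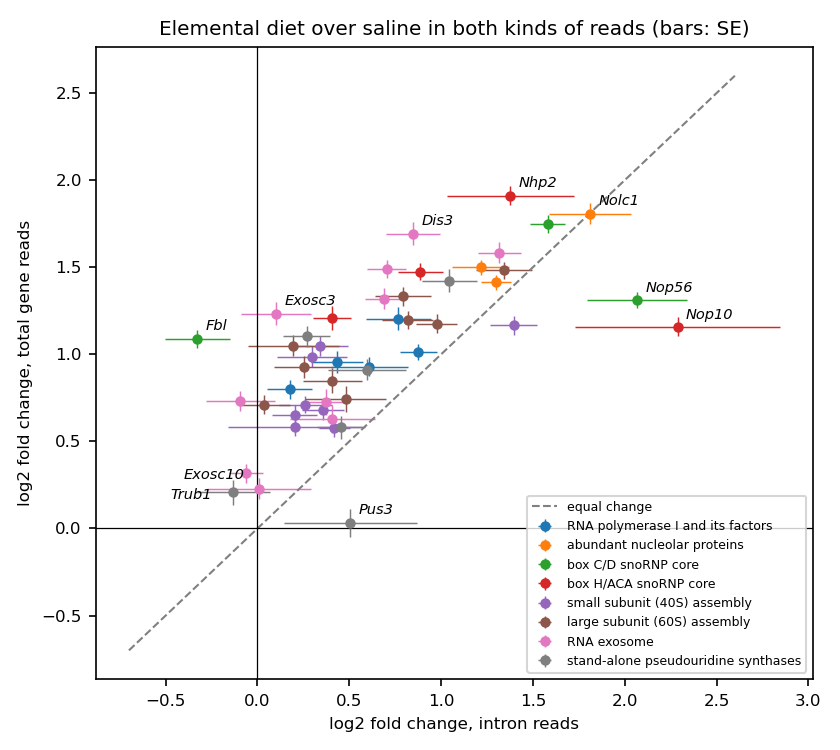
Log2 fold change, elemental diet over saline, in total gene reads (y axis) against intron reads (x axis) for the 48 members tested in both, colored by role, with SE bars. Most points lie above the dashed line of equal change, while Nop56, Nop10, Rrp12 and Pus3 lie below it and Nolc1 lies on it.

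The level of a member and its change were weakly related. Across the 49 members Pearson's r between mean log2 TPM and log2 fold change was 0.32 and Spearman's rho 0.28, as a description over genes that share the libraries. The 7 members whose loci overlap annotated snoRNA genes on the same strand were Ncl, Nop56, Nop58, Dkc1, Wdr43, Tsr1 and Gnl3. Their log2 fold changes were 0.58 to 1.75 with a median of 1.47, and the other 42 had a median of 0.999. The 21 snoRNA rows that overlap the 7 members held 4 reads in all libraries together, in 1 row, in these libraries of polyadenylated RNA.

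Other genes of the same pathways, 137 on 6 lists, moved mostly in the same direction, with 111 of the 136 tested higher, 9 lower and 16 not passing (median log2 fold change 0.67). Of all 18303 genes tested 38.0% were higher and 40.2% lower, and of those in the members' range of levels 55.7% and 33.4%. Of 10 further RNA polymerase I genes 6 were higher and 3 lower, near the shares among genes in that range. The polymerase subunits Cd3eap, Polr1d and Twistnb rose by 1.48, 1.03 and 0.84 on the log2 scale, while Taf1a and Taf1b, parts of the promoter selectivity factor, fell by 0.84 and 0.49 and the small subunit Znrd1 fell by 0.69. Of 9 factors that assemble snoRNPs all were higher, led by Znhit3 at 1.82 and the paired ATPases Ruvbl1 at 1.63 and Ruvbl2 at 1.59, with Znhit6 (0.21), Pih1d1 (0.33) and Nufip1 (0.56) the lowest.

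Of 38 further small-subunit factors 37 were higher and 0 lower, from Noc4l (1.98), Tbl3 (1.87) and Bysl (1.74) down to Ddx10 (0.30), Utp11 (0.28) and Utp15 (0.26). Of 48 further large-subunit factors 38 were higher and 3 lower. Mrto4, Nop9 and Rsl1d1 rose by 1.73, 1.54 and 1.41 on the log2 scale, and the AAA ATPase Mdn1, the helicase Ddx54 and Rbm28 fell by 0.71, 0.40 and 0.15. Of 14 further pseudouridine and ribosomal RNA modification enzymes 11 were higher and 0 lower, with the pseudouridine synthase Rpusd2 at 1.58, the dimethyltransferase Dimt1 at 0.99 and Rpusd1 at 0.90, and with Tsr3 (0.47), Bud23 (0.45) and Pus7l (0.39) the lowest that passed.

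The cofactors and relatives of the exosome were divided, with 10 of 17 tested higher, 3 lower and 4 not passing (median 0.14). The higher part was near the 55.7% among genes in the members' range of levels. Wdr61, a part of the cytoplasmic Ski complex, had a log2 fold change of 1.29, the exosome-binding protein Mphosph6 1.20 and the non-canonical poly(A) polymerase Tent4a 1.03. Zcchc7, the RNA-binding part of the nuclear TRAMP complex that hands RNA to the exosome, had 66.3, 65.9 and 68.4 CPM in elemental diet libraries 1, 2 and 3 and 179, 185 and 182 CPM in saline libraries 1, 2 and 3, far apart in the opposite direction to the exosome subunits, and fell by 1.44 on the log2 scale (SE 0.05, adjusted p = 3e-12, edgeR). The 5′-to-3′ exonuclease Xrn2 fell by 0.37, and Dis3l2, a cytoplasmic nuclease that acts without the exosome, fell by 0.28.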

How the data were processed

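Polyadenylated RNA from 6 libraries was sequenced as paired reads of 75 bp, per the labels' protocols. The deposited tables, 1 per library, hold whole-number read counts per gene (exon, intron, total and unique), per the file headers. They also hold the authors' TPM, per the file headers, used for levels between genes and shares within a role. GRCh37 and GRCm38 are the builds in the submitters' processing notes, and 45 of the 49 members have the coordinates of GENCODE M21 on GRCm38. Aligner, counting tool and strand setting: not given in the sources used here. By gene coordinates, 26 of the 49 members overlap another gene and 18 overlap a protein-coding gene. Not all of these overlaps are named above.

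Total gene counts of all rows were fitted with edgeR 4.0.16 in R 4.3.3 (glmQLFit robust, glmQLFTest, two-sided, TMM factors, filterByExpr), without covariates, with Benjamini-Hochberg adjustment over all 18303 genes tested. Intron reads were fitted likewise. The SE is approximate (absolute log2 fold change over the root of F). The common biological coefficient of variation was 8.26%. Totals of 29053287 to 33073125 reads set the precision, and floors cover counting error only. Sums and shares were compared by exact permutation. The alternatives were other scalings, no filter, DESeq2 1.42.0, unique or exon reads, a 1.5-fold threshold, a replicate block and leaving out each library. The test was checked on simulated counts in which few genes changed, as many up as down. That check does not bear on the choice of scaling.

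The members and lists were chosen with earlier results of these data known. Values per library are given for Ncl, Npm1, Fbl, Dkc1, Exosc10 and Pus1, for the highest and lowest member of each role and for members that did not pass. Trub1 and the cofactor Zcchc7 were added after their values were seen. Of each pathway list the 3 highest and 3 lowest genes that passed with a mean of at least 1 CPM are named. Of 98 marker symbols 97 were found.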

Additional observations from a re-analysis of the deposited data

How the results depend on the processing

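The direction and call of most members held across the 15 alternative settings: of 735 values, 714 kept both, 14 kept the direction without passing and 7 changed sign. A higher call was kept by 39 members in every setting and by 45 in every setting but the 1.5-fold threshold. The members' median of 1.05 was 1.09 with median-of-ratios factors, 0.78 with upper quartile factors, 0.74 with library totals, 0.98 on unique reads, 0.999 on exon reads and 1.10 with DESeq2. Leaving out 1 library at a time gave 1.01 (without saline replicate 2) to 1.07, with 47 or 48 members higher. Under upper quartile factors, and under library totals, 1 member (Pus3) was lower in total reads and 1 member (Fbl) in intron reads. Leaving out 1 library at a time gave 0 to 1 members lower in intron reads, with 1 (Fbl) without elemental diet replicate 3. The log2 fold change of Exosc5 was -0.043 with upper quartile factors and -0.079 with library totals, that of Trub1 -0.065 and -0.10, and that of Pus3 -0.24 and -0.27, and -0.081 on exon reads. The cause was not tested.

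The fit with a replicate block left 48 members higher and 0 lower with a median of 1.05, and 29 higher and 0 lower in intron reads. Deviations of same-numbered libraries correlated at 0.117, -0.0080 and 0.058, and those of differently numbered libraries at -0.104 to 0.060. With 3 libraries per group these values cannot show whether the numbers pair the libraries.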

Other observations

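The sixth ring protein of the exosome, Exosc6, is not among the 49 genes and had 0 reads in each library. Its row, at chr8:111056339-111057664, lies wholly inside that of the alanyl-tRNA synthetase gene Aars, at chr8:111033144-111057664. Aars had 7429, 8582 and 7926 reads in elemental diet libraries 1, 2 and 3 and 2939, 2890 and 2875 reads in saline libraries 1, 2 and 3. How the counting treated nested genes is not known, so these counts do not give a level for Exosc6.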
